A study of Brassica oleracea var. capitata with 6 samples.

Results

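Of the 27024 annotated genes in the deposited gene table, 30 were lowered but still expressed in leaves of *nwgl*, a glossy mutant of cabbage. Expression was given as FPKM, the number of fragments on a transcript divided by its length and by the fragments mapped in that library. A gene was taken when it had at least 0.5 FPKM in each of the 3 *nwgl* libraries and when its lowest wild-type value was at least 2.5 times its highest *nwgl* value. *Bol033662*, *Bol033528*, *Bol044773* and the gene numbers from *Bol018400* to *Bol018600* were left out, 165 listed genes in all. Among these, only *Bol018504*, which belongs to the wax genes named in the study, met both thresholds. The 30 genes were chosen by the FPKM values of this contrast, so all differences between the genotypes given for them are a description, and no test on them is offered as support.

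The 6 libraries came from leaves of 3 wild-type and 3 *nwgl* cabbage samples at harvesting stage, described by the study as biological replicates. The *nwgl* plants derive from the inbred line G287 and carry a dominant locus at the end of chromosome C08, and no treatment or transgene is labelled for either genotype. The wild-type plants are labelled by genotype only, so the effect of this locus and of any other difference between the lines cannot be told apart. Each library was made from bulk leaf RNA, in which fewer cells of a type and less RNA per cell cannot be told apart.

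A cabbage leaf is covered by cuticular wax, which epidermal cells build from very-long-chain fatty acids. Elongase complexes at the endoplasmic reticulum extend the fatty acids, and the products enter an alkane-forming branch, in which CER1 acts, or an alcohol-forming branch, in which fatty acyl-CoA reductases act. Leaves with little wax look glossy. The gene table, the study's tables and the RefSeq gene table paired 0 of the 30 genes with a gene name. The RefSeq gene table held an entry for 0 of the annotated genes, so its count says nothing particular about the 30. No role is therefore given for any of the 30 genes, and markers of leaf cells could not be checked.

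The libraries differed in composition. Summed FPKM per library ran from 291844 to 451537, the 10 most abundant genes took between 22.7% and 57.3% of it, and 24593 to 27587 genes and new loci were above 0. Read totals per library were not analysed here. Recurring ratios among values under 0.3 FPKM put the relative depth of the libraries between 0.893 and 1.02 of wild-type replicate 1. Each ratio recurred in few genes, from 4 for wild-type replicate 3 to 12 for wild-type replicate 2, so these depths are uncertain. Only nearly equal depths were searched for, so a large difference could not have been found. These values therefore do not show that the depths were alike.

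The 30 genes were expressed in wild-type leaves and remained measurable in *nwgl* leaves, both of which the rule requires. Their wild-type means ranged from 3.66 to 53.1 FPKM with a median of 12.2, and their *nwgl* means from 0.627 to 8.67 FPKM with a median of 1.76. Ranked by wild-type mean, they stood between percentiles 60.9 and 98.1 of the annotated genes with a wild-type mean above 0. Their median percentile was 85.8, and the thresholds of the rule shut out genes of low wild-type level. The wild-type mean was 3.48 to 15.5 times the *nwgl* mean, with a median of 6.04, so that *nwgl* leaves held 6.46% to 28.7% of the wild-type level. In 18 genes this fold was at least 5, and in 4 it was at least 10. Together the 30 genes made up 0.139% to 0.153% of the FPKM of annotated genes in each wild-type library and 0.0212% to 0.0297% in each *nwgl* library.

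**Figure D1:**
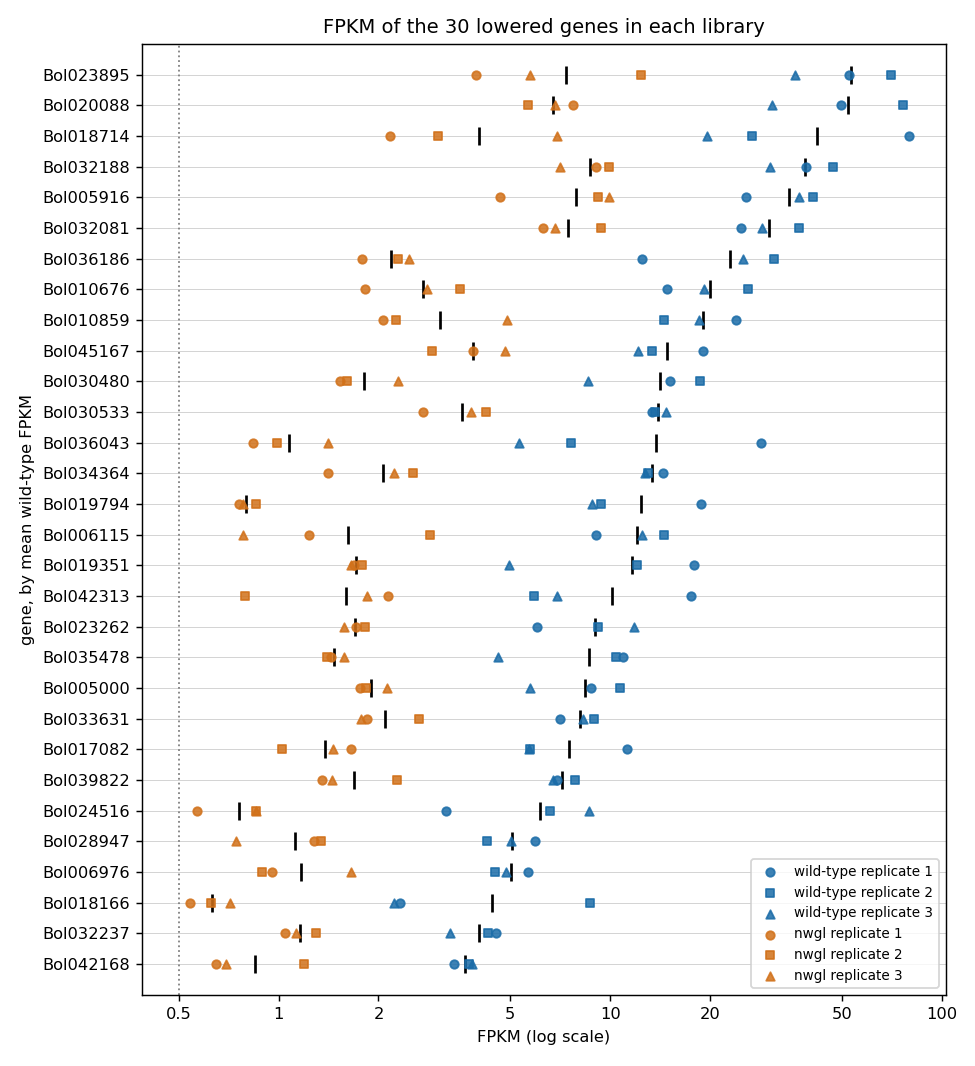
FPKM on a log axis of each of the 30 lowered genes (rows, ordered by wild-type mean) in the 3 wild-type libraries (blue) and the 3 *nwgl* libraries (orange), with a marker shape per replicate number, a black bar at each genotype's mean and a dotted line at the floor of 0.5 FPKM. The rule kept the genotypes apart in every row, and the wild-type means run from 53.1 FPKM for *Bol023895* to 3.66 FPKM for *Bol042168*.

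In 6 genes the wild-type mean was at least 30 FPKM, and each of these kept more than 2 FPKM in every *nwgl* library. *Bol023895* had 52.7, 70.5 and 36.1 FPKM in wild-type replicates 1, 2 and 3 and 3.94, 12.4 and 5.73 FPKM in the *nwgl* replicates, or 53.1 ± 17.2 against 7.34 ± 4.44 FPKM (mean ± SD, n = 3 each). Replicate 2 was the highest library in both genotypes, and its *nwgl* value was the highest of all 30 genes. *Bol020088* had 49.5, 76.3 and 30.9 FPKM in wild-type and 7.75, 5.64 and 6.80 FPKM in *nwgl* replicates, or 52.2 ± 22.8 against 6.73 ± 1.06 FPKM (mean ± SD, n = 3 each). Here the *nwgl* libraries were close to each other, and the wild-type libraries differed 2.47-fold between the highest and the lowest.

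The other genes named in this account, apart from those listed near a long noncoding RNA, were singled out after their values were seen. *Bol018714* had 79.8, 26.8 and 19.6 FPKM in wild-type and 2.16, 3.02 and 6.91 FPKM in *nwgl* replicates, and wild-type replicate 1 alone held more than the other wild-type libraries together. *Bol032188* had 38.9, 47.2 and 30.4 FPKM against 9.03, 9.93 and 7.04 FPKM, with similar values within each genotype. *Bol005916* had 25.6, 41.1 and 37.1 FPKM against 4.66, 9.18 and 9.89 FPKM, and both genotypes had their lowest value in replicate 1. *Bol032081* had 24.7, 37.1 and 28.7 FPKM against 6.28, 9.38 and 6.80 FPKM, with the highest value of both genotypes in replicate 2. The 12 genes with a wild-type mean between 10 and 30 FPKM and the 12 under 10 FPKM completed the group. Only 4 genes had an *nwgl* mean under 1 FPKM, and 17 had one under 2 FPKM.

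The largest reduction was that of *Bol019794*. This gene had 18.8, 9.41 and 8.85 FPKM in wild-type replicates and 0.761, 0.856 and 0.779 FPKM in *nwgl* replicates, or 12.3 ± 5.59 against 0.798 ± 0.0505 FPKM (mean ± SD, n = 3 each). Its lowest wild-type library was 10.3 times its highest *nwgl* library, the widest gap of the 30 genes, and the *nwgl* values lay within a narrow band. *Bol036043* had 28.5, 7.63 and 5.31 FPKM in wild-type and 0.834, 0.988 and 1.40 FPKM in *nwgl*, a fold of 12.8 between the means. That fold rested largely on wild-type replicate 1, since its gap between the lowest wild-type and the highest *nwgl* library was 3.78. *Bol036186* and *Bol018714* were the other genes with a fold of at least 10 between the means, at 10.5 and 10.4.

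The gap between the genotypes, measured as the lowest wild-type over the highest *nwgl* value, ran from 2.52 to 10.3 with a median of 3.02. In 15 genes it was at least 3, and in 3 genes at least 5. Just inside the limit of 2.5 stood *Bol045167*, with 12.1 FPKM in its lowest wild-type and 4.80 FPKM in its highest *nwgl* library, and *Bol032237*, with 3.29 against 1.30 FPKM. Just outside it stood *Bol039715*, at 8.89 against 3.61 FPKM, and *Bol035689*, at 15.4 against 6.32 FPKM. On the side of the FPKM floor, *Bol018166* and *Bol024516* were nearest the limit with lowest *nwgl* values of 0.541 and 0.566 FPKM, and *Bol042216* and *Bol042369* missed it with 0.496 and 0.463 FPKM. Another 325 annotated genes had the same gap but fell under 0.5 FPKM in at least 1 *nwgl* library.

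**Figure D2:**
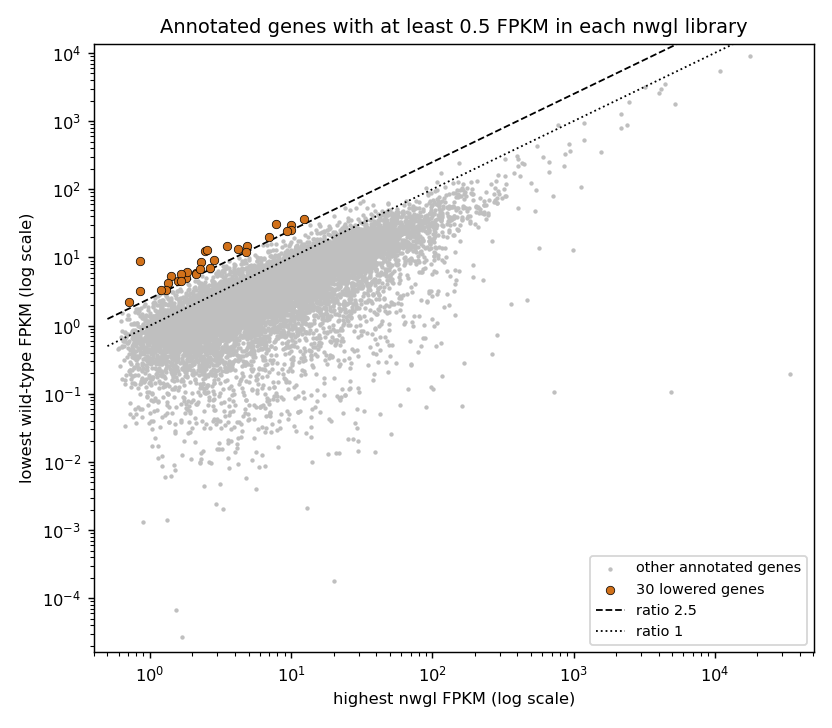
Highest *nwgl* FPKM against lowest wild-type FPKM, both on log axes, for 15572 annotated genes with at least 0.5 FPKM in each *nwgl* library (240 more with a wild-type library at 0 are not drawn), with the 30 lowered genes in orange, a dashed line at the ratio of 2.5 used to choose them and a dotted line at equal values. The 30 genes lie on or above the dashed line by construction, from 0.715 to 12.4 FPKM in the highest *nwgl* library.

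Genes with a clear gap were few among those expressed in *nwgl* leaves. Of the 15812 annotated genes with at least 0.5 FPKM in each *nwgl* library, 1004 (6.35%) had every wild-type library above every *nwgl* library, and the gap reached 1.5 in 223 of them, 2 in 75 and 2.5 in the 30 genes. With the genotypes exchanged, 15199 annotated genes had at least 0.5 FPKM in each wild-type library, 1120 of them had every *nwgl* library above every wild-type library, and 113 had a gap of at least 2.5. The 30 lowered genes were thus fewer than the 113 raised by the mirrored rule, a count that was not tested. Among the new loci, which the study assembled outside the annotation, 3 of 4473 met both thresholds.

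Across all genes, limma was fitted to log2(FPKM + 0.1), and a call required a p below 0.05 after Benjamini-Hochberg adjustment together with a log2 fold change of 1 or more in either direction. This called 293 of the 24332 genes tested lower in *nwgl* (1.2%) and 897 higher (3.69%). All 30 of the chosen genes were tested and all 30 were among those called lower, which the choice on the same values leads to and from which nothing is read. Every wild-type library was above every *nwgl* library in 8.54% of all genes tested, and in the 30 genes by the rule. Their log2 fold changes ranged from -3.71 to -1.71, with a median of -2.36, where the median over all genes tested was -0.04. Standard errors of these changes ran from 0.35 to 0.61.

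The spread within a genotype varied from gene to gene. The coefficient of variation over the wild-type replicates ranged from 5.19% to 92.4% with a median of 29.0%, and that over the *nwgl* replicates from 3.92% to 67.0% with a median of 23.3%. It was larger in wild-type in 17 genes and larger in *nwgl* in 13. Over the 15812 annotated genes that met the FPKM floor, the medians were 39.3% in wild-type and 29.5% in *nwgl*, and 65.0% of genes were more variable in wild-type. The rule favours genes with little spread, and its share in the lower medians of the 30 genes was not tested.

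Several genes had nearly equal wild-type values. *Bol030533* had 13.4, 13.7 and 14.8 FPKM in wild-type replicates and 2.72, 4.21 and 3.80 FPKM in *nwgl* replicates. *Bol034364* had 14.5, 13.0 and 12.8 FPKM in wild-type and 1.40, 2.55 and 2.23 FPKM in *nwgl*. *Bol039822* had 6.94, 7.84 and 6.72 FPKM in wild-type and 1.36, 2.28 and 1.45 FPKM in *nwgl*. In each of these the spread between *nwgl* libraries, relative to the mean, exceeded that between wild-type libraries. Their *nwgl* replicate 2 was higher than the other *nwgl* replicates, as it was in 75.9% of the 15812 annotated genes at the FPKM floor.

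Other genes were uneven in wild-type. *Bol018166* had 2.33, 8.69 and 2.23 FPKM in wild-type and 0.541, 0.625 and 0.715 FPKM in *nwgl* replicates, so that its wild-type mean rested on replicate 2. In *Bol042313* the wild-type values were 17.6, 5.89 and 6.91 FPKM and the *nwgl* values 2.14, 0.794 and 1.85 FPKM, with replicate 1 the highest in both genotypes. *Bol035478* had 10.9, 10.4 and 4.59 FPKM in wild-type, replicate 3 being the low one, and 1.44, 1.40 and 1.57 FPKM in *nwgl*. *Bol023262* had 6.01, 9.22 and 11.8 FPKM in wild-type and 1.71, 1.82 and 1.58 FPKM in *nwgl*. Of all 30 genes, 4 had a highest wild-type value at least 3 times the lowest, and 3 had such a spread in *nwgl*. The widest spread in *nwgl* was that of *Bol006115*, with 9.10, 14.6 and 12.5 FPKM in wild-type and 1.24, 2.85 and 0.780 FPKM in *nwgl* replicates.

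Further genes of the group varied in which library was highest or lowest. *Bol010676* had 14.9, 26.0 and 19.2 FPKM in wild-type and 1.82, 3.53 and 2.80 FPKM in *nwgl*, with both genotypes lowest in replicate 1 and highest in replicate 2. For *Bol030480* these values were 15.2, 18.6 and 8.59 FPKM and 1.53, 1.61 and 2.29 FPKM, and wild-type replicate 3 was the lowest wild-type library while *nwgl* replicate 3 was the highest *nwgl* library. *Bol010859* had 24.0, 14.5 and 18.5 FPKM against 2.06, 2.25 and 4.87 FPKM, and *nwgl* replicate 3 stood above the other *nwgl* libraries. The same library was the highest for *Bol045167*, which had 19.0, 13.4 and 12.1 FPKM against 3.87, 2.90 and 4.80 FPKM, and for *Bol006976*, with 5.65, 4.51 and 4.86 FPKM against 0.953, 0.890 and 1.65 FPKM. *Bol033631* had 7.05, 8.93 and 8.28 FPKM against 1.85, 2.65 and 1.77 FPKM and differed little within wild-type. At the lower end, *Bol028947* had 5.95, 4.25 and 5.02 FPKM against 1.27, 1.34 and 0.742 FPKM, and *nwgl* replicate 3 was its lowest library. *Bol024516* had 3.21, 6.57 and 8.65 FPKM against 0.566, 0.852 and 0.855 FPKM, with replicate 1 the lowest in both genotypes.

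**Figure D3:**
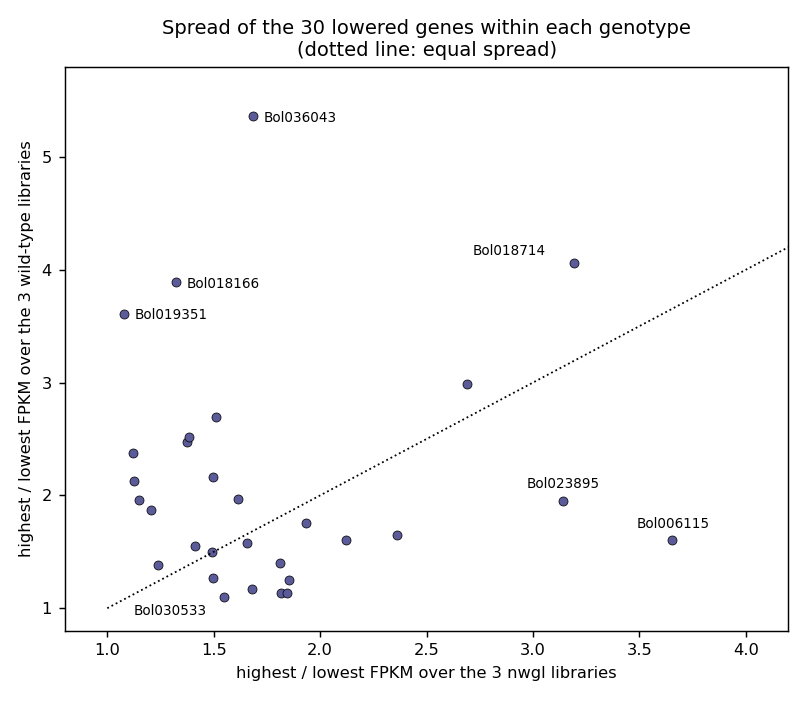
Highest over lowest FPKM across the 3 *nwgl* libraries (x axis) and across the 3 wild-type libraries (y axis) for each of the 30 lowered genes, as ratios without unit, with a dotted line where both are equal. *Bol036043* has the widest wild-type spread (5.36) and *Bol006115* the widest *nwgl* spread (3.65), while *Bol019351* combines a wide wild-type spread with the narrowest *nwgl* spread (1.08).

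No library of a genotype was highest throughout. Among the wild-type libraries, replicates 1 and 2 were each highest in 13 genes and replicate 3 in 4, while over the 15812 genes at the FPKM floor these shares were 39.0%, 50.7% and 10.4%. Among the *nwgl* libraries, replicate 3 was highest in 12 of the 30 genes (40.0%) and in 14.4% of the 15812 genes, and replicate 1 was lowest in 18 of the 30 (60.0%) and in 35.6% of the 15812. This order depended on scaling. The size factors by which median-of-ratios scaling divides each library were 1.24 for wild-type replicate 2 and 1.26 for *nwgl* replicate 2. In the other libraries they lay between 0.792 and 1.03. With median-of-ratios scaling, replicate 3 was the highest library in 16 of the 30 genes in wild-type (53.3%, against 33.6% of the 15812) and in 19 of the 30 in *nwgl* (63.3%, against 32.3%).

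Each of the 30 genes kept every wild-type library above every *nwgl* library when the libraries were scaled by median-of-ratios or quantile normalization. The median-of-ratios outcome was fixed in advance, because size factors from 0.792 to 1.26 cannot close a gap of 2.5. Both outcomes use the values that chose the genes and are a description only. The gap narrowed to 1.92 at the lowest with median-of-ratios scaling and to 1.64 with quantile normalization. Under each scaling, 23 of the 30 genes kept a gap of 2.5 and the FPKM floor. These scalings gave 38 and 40 genes that met the rule. Quantile normalization moved the median log2 fold change of all genes to -0.10, and that of the 30 genes to -2.44. Across genes, the wild-type and *nwgl* means were ordered alike (Spearman's rho = 0.84 over 30 genes), and the wild-type mean and the fold between the means less so (rho = 0.33). The genes share the 6 libraries and a rule that ties their 2 levels together, so these are descriptions with no test.

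The pathway genes that the study had listed as lowered were not among the 30. The study lists 29 genes, 24 of them annotated, in the KEGG pathways it found among its down-regulated genes, which include tyrosine metabolism, glucosinolate and brassinosteroid biosynthesis and plant hormone signal transduction. Of the 24 annotated genes, 0 were among the 30. Of the 24, 15 were under 0.5 FPKM in at least 1 *nwgl* library, and the other 9 had a gap between 0.838 and 2.48, short of 2.5. Genes left out by the rule were counted here as well, among them the gene at 2.48, which could not have been taken. limma called 11 of the 29 lower and 0 higher, and since the study chose the list on these libraries its direction is not independent evidence. Of the 9 wax genes named in the study, 0 belonged to the group, 1 was called lower and 4 were called higher. The study used DESeq, a different method from limma on FPKM, and had counted all 29 and all 9 as changed.

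*Bol018504*, the wax gene left out by the rule, had 114, 142 and 44.0 FPKM in wild-type replicates and 5.20, 5.09 and 5.97 FPKM in *nwgl* replicates. Its gap of 7.36 was wider than that of any of the 30 genes except *Bol019794*.

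The study also listed, for long noncoding RNAs (lncRNAs) that it had found changed in these libraries, the annotated genes nearby. Transcripts of this class do not code for protein, and some are known to act on genes close to their own locus. Of the 30 genes, 4 (13.3%) were listed near at least 1 such lncRNA, as were 1077 of the 20909 annotated genes tested (5.15%). The study's text reports fewer nearby target genes than 1077. The source of this mismatch was not examined, so the background share is approximate. The 10 lncRNA transcripts concerned were all tested in a separate limma fit over 2340 lncRNAs, which called 1.92% higher and 0.855% lower in *nwgl*. Of the 10, 4 were called higher and 1 was called lower. The study listed only changed lncRNAs, so these calls are not independent evidence of a change.

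At *Bol042168*, the gene and the lncRNA were both lower in *nwgl*. The gene had 3.38, 3.76 and 3.83 FPKM in wild-type replicates and 0.648, 1.19 and 0.694 FPKM in *nwgl* replicates. Its listed lncRNA MSTRG.66579.3 had 10.4, 30.2 and 22.9 FPKM in wild-type and 0.143, 0.220 and 0.250 FPKM in *nwgl*. The lncRNA was the more abundant of the pair in every wild-type library and the less abundant in every *nwgl* library. limma put its log2 fold change at -6.01 (standard error 0.61, Benjamini-Hochberg adjusted p = 0.000878), and it was called whichever library was left out.

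*Bol036186* had 12.4, 31.3 and 25.1 FPKM in wild-type and 1.78, 2.30 and 2.47 FPKM in *nwgl* replicates, or 22.9 ± 9.61 against 2.18 ± 0.355 FPKM (mean ± SD, n = 3 each). The lncRNA listed near it, MSTRG.79055.1, had 0.613, 1.56 and 0.489 FPKM in wild-type and 0.0512, 0.0882 and 0 FPKM in *nwgl*. Replicate 2 was the highest wild-type library for the gene and for the lncRNA. The lncRNA was not called (log2 fold change -2.64, standard error 0.62, adjusted p = 0.0539 from limma), although its genotypes did not overlap, which held with wild-type above *nwgl* in 8.5% of the lncRNAs tested. It was called with median-of-ratios scaling (adjusted p = 0.0333 from limma) and with quantile normalization (adjusted p = 0.0300 from limma), but not under the other 6 settings that kept all libraries and tested it, nor with any library left out.

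At the other pair of genes the lncRNAs were seen in *nwgl* leaves only, among these 6 libraries. *Bol032237* had 4.54, 4.27 and 3.29 FPKM in wild-type and 1.05, 1.30 and 1.12 FPKM in *nwgl*. The lncRNA MSTRG.78339.1 was listed at 0 in every wild-type library and had 6.59, 3.28 and 6.19 FPKM in *nwgl*, which limma called higher (adjusted p = 0.000878), also with any library left out. No fold is given against a listed 0. In *nwgl* leaves the lncRNA thus exceeded its neighbour gene in each library.

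*Bol019351* had 17.9, 12.1 and 4.95 FPKM in wild-type and 1.69, 1.79 and 1.66 FPKM in *nwgl* replicates. Its *nwgl* values were the most even of the 30 genes. Near it the study lists 7 lncRNA transcripts from 3 assembled loci, 5 of them from a single locus, and all 7 were listed at 0 in every wild-type library. MSTRG.79435.1 had 1.51, 1.03 and 0.741 FPKM in the *nwgl* replicates, MSTRG.79437.1 had 0.450, 0.643 and 0.666 FPKM, and MSTRG.79413.2 had 0.503, 1.12 and 0.545 FPKM. limma called these 3 higher (adjusted p = 0.00696, 0.0226 and 0.0212) but not the other 4, and with any library left out it called 0 of the 7, of which 5 to 7 then had an unadjusted p under 0.05. Over the 10 lncRNAs near the 4 genes, 5 were called with all libraries and 2 in each fit with a library left out, MSTRG.66579.3 and MSTRG.78339.1.

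**Figure D4:**
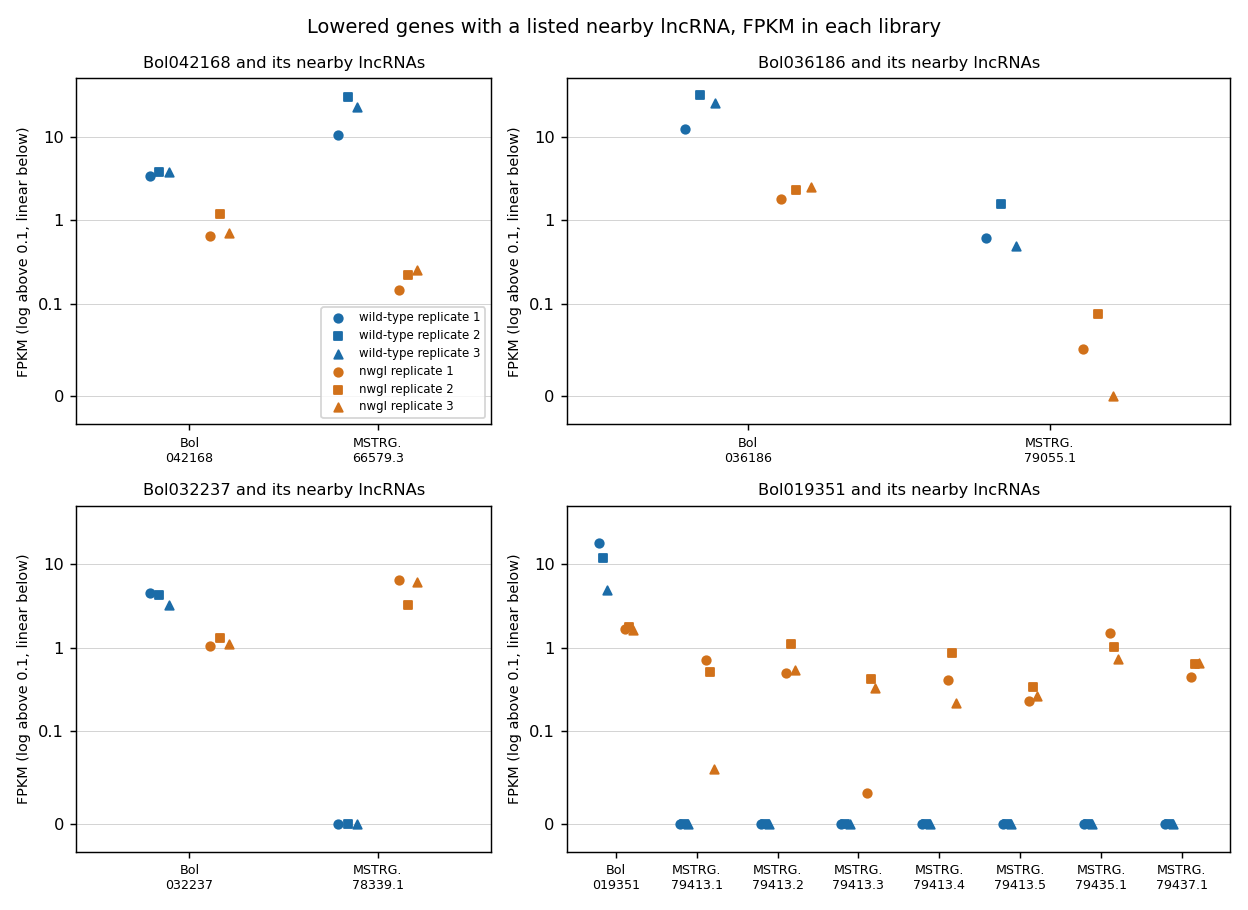
FPKM of *Bol042168*, *Bol036186*, *Bol032237* and *Bol019351* and of the lncRNAs listed near each, in the 3 wild-type (blue) and 3 *nwgl* libraries (orange), with a marker shape per replicate and an axis that is logarithmic above 0.1 FPKM and linear below. The lncRNAs near the upper pair are lower in *nwgl* like the gene, whereas the 8 lncRNAs near the lower pair are at 0 in wild-type and above 0 in *nwgl*.

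No gene listed near the same lncRNAs as the 4 genes was called lower by limma, a count of 0 in 79 tested, where 1.2% of all genes tested were called lower. An unadjusted p under 0.05 in either direction was found for 10 of them (12.7%), against 16.2% of all genes tested, so neither share exceeded the background. Near *Bol019351*, 16 other genes were tested with a median log2 fold change of 0.19, and 0 had an unadjusted p under 0.05 with a lower level in *nwgl*, whereas 3 had one with a higher level. Near *Bol032237*, 25 were tested with a median of 0.25, and these counts were 0 and 3. Near *Bol036186*, 13 were tested with a median of -0.02, and the counts were 1 and 0. Near *Bol042168*, 25 were tested with a median of 0.09, and the counts were 0 and 3.

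Of the genes in these neighbourhoods 1 was called, and it was higher in *nwgl*. This was *Bol042150*, at 0.555, 0.780 and 0.160 FPKM in wild-type and 17.7, 38.1 and 2.96 FPKM in *nwgl* replicates (log2 fold change 4.59, standard error 0.86, adjusted p = 0.0168 from limma). Its *nwgl* libraries differed widely but all lay above the wild-type ones. With a library left out, limma called *Bol042150* only without *nwgl* replicate 3, and its adjusted p rose to as much as 0.0935 in the other fits. In each of the 4 neighbourhoods, 0 genes had a log2 fold change below that of the lowered gene, which the rule had chosen for its size. The study counted as near any gene within a fixed distance up- or downstream of an lncRNA, and the distances of single genes were not analysed here.

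**Figure D5:**
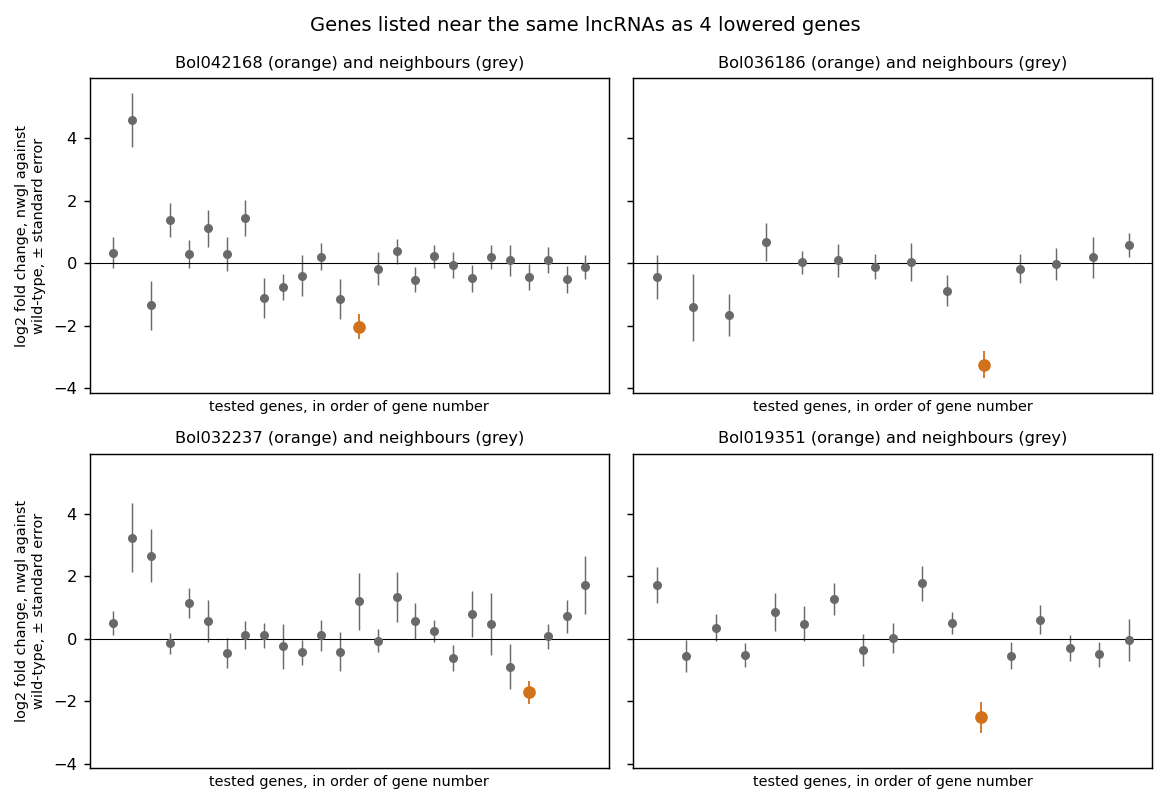
Log2 fold change in FPKM, *nwgl* against wild-type, with its standard error from limma, for each tested gene listed near the same lncRNAs as *Bol042168*, *Bol036186*, *Bol032237* or *Bol019351*, in order of gene number without distances. The lowered gene (orange) has the lowest value in each panel, and the neighbours (grey) have medians between -0.02 and 0.25.

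The 30 genes were also not next to each other in gene number. The smallest difference between the numbers of any pair was 49. Of the 60 listed genes with the next lower or next higher number, 0 belonged to the group and 52 were tested. The log2 fold changes of these 52 ranged from -3.93 to 3.28 with a median of -0.29, and 33 (63.5%) were below 0, against 52.5% of the annotated genes tested. limma called 2 of them lower (3.85%, against 1.2% of all genes tested) and 1 higher (1.92%, against 3.69%). Every wild-type library was above every *nwgl* library in 9 (17.3%, against 8.54% of all genes tested). All genes tested include new loci, unlike the neighbours, and none of these differences in share was tested.

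At these 3 places limma called both a lowered gene and its neighbour by number, in the same or the other direction, though no such neighbour met the rule. *Bol017083*, next to *Bol017082*, had 1.08, 2.49 and 1.25 FPKM in wild-type and 0, 0.00934 and 0.00503 FPKM in *nwgl* replicates (log2 fold change -3.93, standard error 0.52, adjusted p = 0.00334 from limma). *Bol017082* itself had 11.2, 5.71 and 5.69 FPKM in wild-type and 1.65, 1.02 and 1.46 FPKM in *nwgl*. The neighbour was thus almost undetected in *nwgl* where the lowered gene remained expressed, and their highest wild-type libraries differed. limma called *Bol017083* with any library left out, but the size of its fitted change depends on the pseudocount, at -1.34 with a pseudocount of 1 and -6.72 with 0.01.

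*Bol042312*, next to *Bol042313*, had 6.27, 15.2 and 11.9 FPKM in wild-type and 1.09, 1.56 and 2.70 FPKM in *nwgl* replicates (log2 fold change -2.57, standard error 0.48, adjusted p = 0.0162 from limma). In wild-type leaves, replicate 1 was its lowest library, whereas replicate 1 was the highest for *Bol042313*. *Bol004999*, next to *Bol005000*, went the other way, with 3.83, 6.34 and 2.81 FPKM in wild-type and 24.9, 27.8 and 11.4 FPKM in *nwgl* replicates (log2 fold change 2.26, standard error 0.48, adjusted p = 0.0284 from limma). *Bol005000* had 8.74, 10.7 and 5.73 FPKM in wild-type and 1.76, 1.84 and 2.12 FPKM in *nwgl*. With a library left out, limma called *Bol042312* only without wild-type replicate 1 or *nwgl* replicate 3 (adjusted p up to 0.102 in the other fits) and *Bol004999* only without wild-type replicate 2 or *nwgl* replicate 3 (up to 0.154). How reads that match more than 1 gene were assigned is not given in the sources used here, so shared reads between neighbours of similar sequence were not examined.

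The calls of limma on the 30 genes rested on different numbers of libraries. With a library left out, between 6 and 23 of the 30 were called, 6 without *nwgl* replicate 1, 13 without wild-type replicate 2, 16 without wild-type replicate 1, 16 without *nwgl* replicate 2, 22 without wild-type replicate 3 and 23 without *nwgl* replicate 3. *Bol020088*, *Bol036186*, *Bol010676*, *Bol030480*, *Bol034364* and *Bol019794* were called in all 16 fits. *Bol042313*, *Bol018166* and *Bol032237* were called only with all 6 libraries present, in 0 of the 6 smaller fits. Their unadjusted p from limma was under 0.05 in each smaller fit. That p comes from the values that chose the genes, so nothing is read from it. All 30 kept a log2 fold change below 0 in each fit, which the rule fixes except under quantile normalization.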

How the data were processed

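Leaf RNA of 3 wild-type and 3 *nwgl* samples was sequenced by the study in 6 strand-specific libraries. Per the labels and the methods, reads were aligned to the cabbage genome with HISAT2 and assembled with StringTie 1.3.1, and the authors deposited FPKM values for 27024 annotated genes, 4473 new loci and 4459 lncRNA transcripts. FPKM allows for transcript length and library size, but a few very abundant genes can still shift all other values of a library. The tables hold no read counts. Groups and replicates were taken from the labels, and the column names matched them.

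The 30 genes were chosen by FPKM thresholds, and the members and gene lists were chosen with earlier results of these data known. Features whose mean FPKM reached 0.1 entered limma 3.58.1 (R 4.3.3), genes and lncRNAs each in a fit of their own on log2(FPKM + 0.1), with a trended prior, two-sided tests and Benjamini-Hochberg adjustment over all features tested. A fold change on this scale understates the change of low genes. Calls required an adjusted p below 0.05 and a log2 fold change of 1 or more in either direction. These p-values measure only the spread between these samples. A rank-based exact test of 3 against 3 libraries cannot go below p = 0.1. The script was tested on simulated data. Tables were handled with pandas 2.3.3 and numpy 2.4.6 in Python 3.11.15.

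Named genes were those listed in the lowered pathways, those listed near an lncRNA and the 2 with the highest wild-type mean, and others are marked as singled out afterwards. Pathway, wax and lncRNA target lists came from the study's tables, whose own test values were not used. Alternatives were other pseudocounts and filters, median-of-ratios and quantile scaling, other limma priors, adjusted p alone, a replicate block, other thresholds of the rule and each library left out.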

Additional observations from a re-analysis of the deposited data

How the results depend on the processing

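Both thresholds and every library shaped which genes were taken. A gap of 2 gave 75 genes, a gap of 3 gave 15, and the ratio of the genotype means gave 488, in place of 30. With a library left out, 42 to 106 genes met the rule. The limma count of 293 genes lower in *nwgl* became 178 with a pseudocount of 1, 200 without a filter and 172 with a mean FPKM of at least 1. It was 405 with median-of-ratios scaling, 490 with quantile normalization and 89 to 219 with a library left out. The 897 genes higher became 599 with a pseudocount of 1, 561 without a filter and 563 with a mean FPKM of at least 1. They were 1118 with median-of-ratios scaling, 1092 with quantile normalization and 292 to 1050 with a library left out. Of the 30 genes, 6 to 23 were called with a library left out, and 24 were called under all 9 other settings. *Bol018166* was called under 4 of the 9. *Bol019351* (log2 fold change -2.51) and *Bol032237* (-1.71) were not called without a filter, where more genes are tested. Of the lncRNAs near the 4 genes, 2 were called with a pseudocount of 1, with the mean FPKM filter at 1, which leaves fewer to test, and with any library left out, and 6 were called with a pseudocount of 0.01 or under either scaling. The causes of the other changes were not tested. No direction reversed among the 30 genes, which the rule fixes except under quantile normalization. A replicate block gave 30 of 30 called lower, 313 genes lower and 1001 higher. The numbers mark no shared source in the labels, so they were not treated as pairs. Deviations of same-numbered libraries correlated at -0.03, 0.12 and 0.18. Wild-type replicate 1 was closest to *nwgl* replicate 2 (0.14), while wild-type replicates 2 and 3 were each closest to the *nwgl* library of the same number. With read totals not analysed here, no counting interval can be given, and the precision is that of 3 libraries per genotype.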

Other observations

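The 3 new loci that met the same thresholds were not among the 30 genes, because they lie outside the annotation. Kohlrabi_newGene_11901 had 13.8, 21.1 and 23.8 FPKM in wild-type replicates and 2.14, 2.53 and 1.98 FPKM in *nwgl* replicates. Kohlrabi_newGene_31362 had 2.59, 6.14 and 3.93 FPKM in wild-type and 0.725, 0.696 and 0.788 FPKM in *nwgl*. Kohlrabi_newGene_37124 had 7.76, 8.92 and 6.07 FPKM in wild-type and 0.986, 0.768 and 0.568 FPKM in *nwgl*. The lowest wild-type library was 5.47, 3.29 and 6.15 times the highest *nwgl* library in these loci, and wild-type replicate 1 was the lowest wild-type library in the first and second of them. A further 45 annotated genes met the FPKM floor with a gap between 2 and 2.5.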
